A study of Mus musculus with 6 samples.

Results

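The alternative NF-κB pathway was described here through its 9 listed genes, of which 7 were measured by 8 of the 35556 probe sets on the arrays. The members were taken by gene symbol from the platform annotation: Nfkb2, Relb, Map3k14, Traf1, Traf2 and Birc3 with 1 probe set each, and Birc2 with 2. Chuk, which encodes the kinase IKKα, and Traf3, an adaptor that brings the kinase NIK to its degradation, were not analysed here. The RNA came from group 3 innate lymphoid cells (ILC3s) that carry CCR6, sorted out of the lamina propria of the small intestine in adult C57BL/6 mice, and was read on Affymetrix mouse gene arrays. The RANKL-deficient group held 3 arrays, with Tnfsf11 floxed and a Cre transgene, and the control group (Tnfsf11fl/fl) held 3 arrays, likewise floxed but with no Cre named. An effect of Cre itself cannot be told apart from that of the deletion. The labels do not say whether mice were pooled or whether the arrays of a group came from separate mice, so the p-values measure only the spread between these arrays, which may be technical.

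The alternative pathway is the slow branch of NF-κB signalling that receptors such as the lymphotoxin β receptor, RANK, CD40 and the BAFF receptor switch on. In resting cells a complex of TRAF2, TRAF3 and the ubiquitin ligases cIAP1 and cIAP2 destroys the kinase NIK. Receptor binding breaks up that complex, NIK accumulates and activates IKKα, and the precursor p100 is cut to p52, which enters the nucleus with RelB. The pathway is required for lymph nodes and Peyer's patches to form, and the receptors act there on stromal cells that meet lymphotoxin-bearing lymphoid tissue inducer cells, the fetal relatives of CCR6+ ILC3s. Much of its control acts on protein stability and cleavage, which arrays of RNA do not measure.

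No member passed the adjusted threshold of 0.05 (limma, Benjamini-Hochberg over 19938 genes, adjusted p from 0.408 to 0.961), where 0.00502% of all genes passed. Nfkb2 and Birc3 had lower values on all 3 RANKL-deficient arrays than on all 3 control arrays. Birc2 and Relb had higher means in RANKL-deficient cells with overlapping arrays, and Map3k14, Traf1 and Traf2 had means close together. At an unadjusted p under 0.05 there were 3 of 7 members, against 8.15% of all genes. Of these, Birc2 was higher, against 4.25% of all genes, and Nfkb2 and Birc3 were lower, against 3.9%. The count ran from 1 to 3 over 16 other settings: Nfkb2 stayed under 0.05 in each, while the p of both Birc2 and Birc3 was above it with the replicate block (0.0639 and 0.0808), with the trend and robust options (0.0563 and 0.0943), without control arrays 1 and 2, and without RANKL-deficient array 1, RANKL-deficient array 2 or control array 2. Without RANKL-deficient array 2, Relb was under it instead (limma, unadjusted p = 0.0273, adjusted p = 0.822). With the mean of the probe sets of each gene, Birc3 stayed under 0.05 and Birc2 did not (limma, unadjusted p = 0.292 for Birc2). The same held without control array 1 (limma, unadjusted p = 0.0921 for Birc2). Birc3 but not Birc2 was above 0.05 with median centring (limma, unadjusted p = 0.0694) and with genes above the median only (0.0707). That was also so without RANKL-deficient array 3 (limma, unadjusted p = 0.108 for Birc3) and without control array 3 (0.0736). The 7 differences, RANKL-deficient minus control, had a median of 0.062 on the log2 scale with 4 above 0. Those of all genes had a median of −0.054 with 39.5% above 0. That median depended on expression: in 4 groups of genes from low to high mean level it was −0.10, −0.099, −0.011 and 0.080. The members lay at percentiles 71.5 to 91.1 of mean level, in the 2 groups with the highest levels. The member median of 0.062 lay between the medians of those groups, −0.011 and 0.080. The members differed in both directions, so this median cannot show whether they shifted as a set, which was not tested.

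Nfkb2 encodes p100, which is both the inhibitor of RelB and the precursor of p52. The gene is itself a well known target of NF-κB. A promoter window of Nfkb2 is shown because the gene had the lowest p among the members. That of Birc3 is shown because Birc3 was the other member whose arrays did not overlap. Each line gives 250 bases 5′ to 3′ on the gene's strand, ending just before an annotated start, from RefSeq on GRCm38.p6. Capitals mark matches to the NF-κB decamer consensus on either strand. The Nfkb2 window is chr19:46304487-46304736 on the plus strand, and the Birc3 window is chr9:7873171-7873420 on the minus strand.
Nfkb2: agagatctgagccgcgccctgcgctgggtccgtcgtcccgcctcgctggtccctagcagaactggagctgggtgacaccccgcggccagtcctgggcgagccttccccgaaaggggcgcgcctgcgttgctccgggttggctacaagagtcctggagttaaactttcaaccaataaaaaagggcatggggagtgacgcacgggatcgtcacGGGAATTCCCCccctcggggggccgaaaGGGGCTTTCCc
Birc3: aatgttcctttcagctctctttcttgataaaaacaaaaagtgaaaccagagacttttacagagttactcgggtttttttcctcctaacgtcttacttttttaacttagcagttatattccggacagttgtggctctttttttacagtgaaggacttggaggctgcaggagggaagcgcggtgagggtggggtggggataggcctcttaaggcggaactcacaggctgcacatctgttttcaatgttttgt

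The Nfkb2 window held 4 matches in 2 separate stretches, since the stretch with GGGAATTCCC reads as a match on both strands and overlaps a further match shifted by 1 base. The stretch GGGGCTTTCC ended 2 bases upstream of the start. The other 2 Nfkb2 windows searched held 1 match each, so the window printed is the one with the most matches. The first annotated base of the gene lies upstream of these windows, so a further start may have no window. Of the 8 member genes with a window, matches were found for Nfkb2 and Traf3 only, in 4 of 11 windows, and the Birc3 window had none. Relb had no window in the table. Of 32851 promoter windows of this length over all genes, 7.25% held a match. A match is a description of letters, and none was tested for binding here.

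Nfkb2 had log2 values of 7.60, 8.12 and 8.07 on RANKL-deficient arrays 1, 2 and 3, against 8.70, 8.60 and 8.81 on control arrays 1, 2 and 3. The groups did not overlap, and RANKL-deficient array 1 was the lowest. The means were 7.93 ± 0.29 in RANKL-deficient cells and 8.70 ± 0.10 in control cells (SD, n = 3 each). The log2 difference was −0.77 (SE 0.17, 95% confidence interval −1.18 to −0.37), a level 0.586 times that of control. It ranked 135 of 19938 genes by p and did not pass after adjustment (limma, unadjusted p = 0.00276, adjusted p = 0.408). The exact permutation test, two-sided, reached p = 0.1, the smallest that 3 arrays against 3 can give. The difference lay between −0.61 and −0.87 in 16 other settings and was smallest without RANKL-deficient array 1.

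Relb encodes the partner of p52 and is held in the cytoplasm by p100. Its log2 values were 6.91, 6.49 and 7.02 on the RANKL-deficient arrays and 6.07, 6.53 and 6.55 on the control arrays. RANKL-deficient arrays 1 and 3 lay above every control array, while RANKL-deficient array 2 lay below control arrays 2 and 3. The means were 6.81 ± 0.28 in RANKL-deficient cells and 6.38 ± 0.27 in control cells (SD, n = 3 each), a log2 difference of 0.42 (SE 0.20, 95% confidence interval −0.049 to 0.90; limma, adjusted p = 0.631). Without control array 1 the difference was 0.27, and without RANKL-deficient array 2 it was 0.58.

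The mRNAs of p100 and RelB thus had mean differences of opposite sign. Within each array, the log2 value of Nfkb2 minus that of Relb was 0.69, 1.62 and 1.06 on RANKL-deficient arrays 1, 2 and 3, and 2.63, 2.07 and 2.26 on control arrays 1, 2 and 3. The groups did not overlap. This pair was chosen after its values were seen, the offset between probe sets has no meaning as a level, and the within-array difference shows unequal change only, so no test was made.

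**Figure D1:**
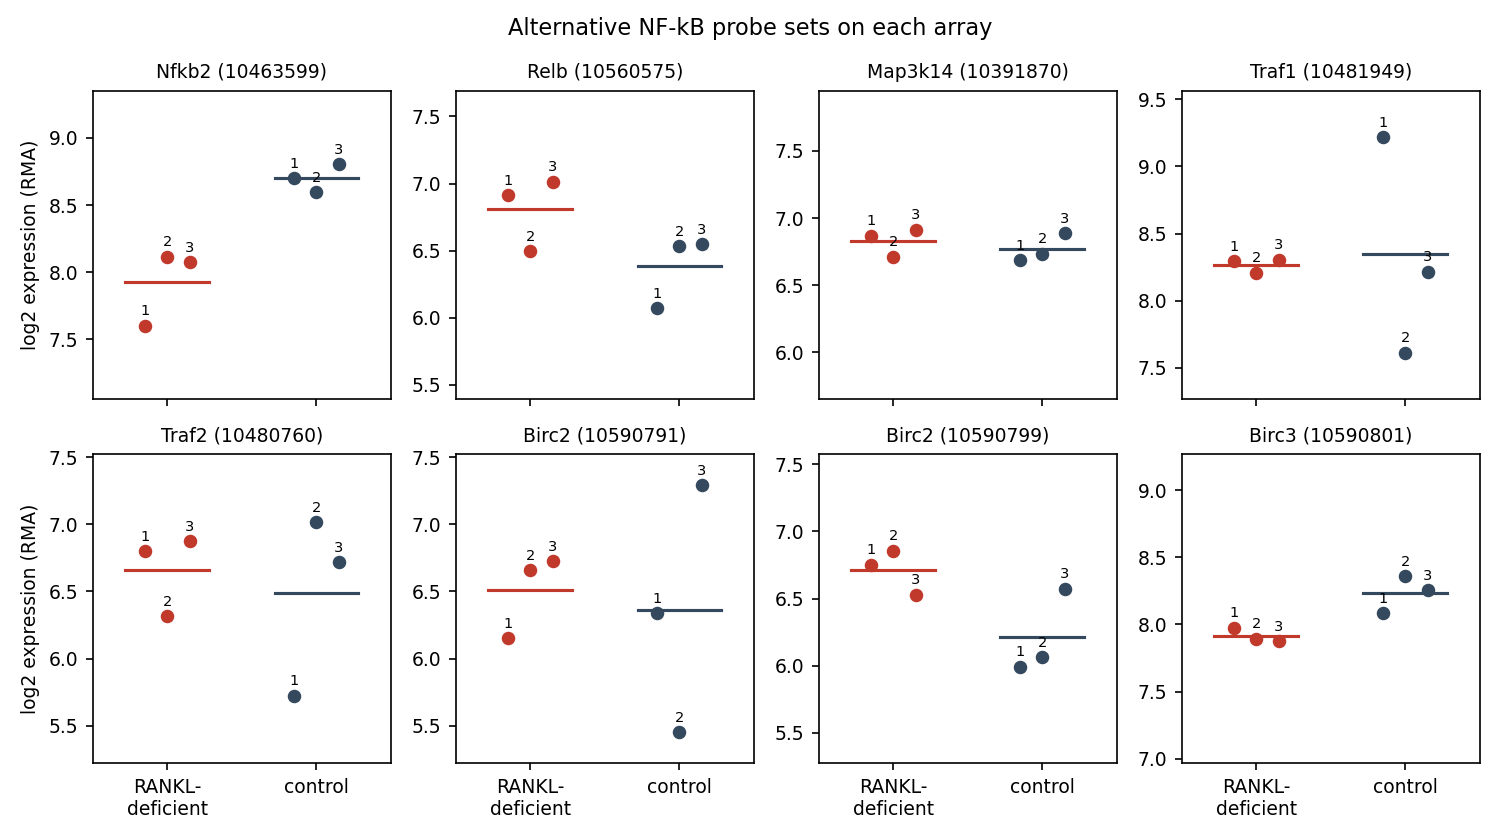
Log2 RMA expression (vertical axes, each spanning 2.3 log2 units) of the 8 member probe sets on each array, with RANKL-deficient arrays in red at left and control arrays in dark blue at right; numbers are replicate numbers and horizontal lines are means (n = 3 each). The arrays of the groups do not overlap for Nfkb2 and Birc3, and control arrays 1 and 2 spread widely for Traf1.

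Map3k14 encodes NIK, the kinase that starts p100 cleavage; the mouse alymphoplasia mutation lies in this gene. Its log2 values were 6.87, 6.71 and 6.91 on the RANKL-deficient arrays and 6.69, 6.73 and 6.89 on the control arrays. The groups overlapped throughout, and each had an SD of 0.11 (n = 3). The log2 difference was 0.062 (SE 0.13, 95% confidence interval −0.24 to 0.36; limma, adjusted p = 0.902), and its sign turned to −0.038 after quantile normalization.

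Birc2 and Birc3 encode cIAP1 and cIAP2, the ubiquitin ligases that mark NIK for destruction. Birc3 is also a common NF-κB target gene. Birc3 had log2 values of 7.98, 7.89 and 7.87 on the RANKL-deficient arrays and 8.09, 8.36 and 8.26 on the control arrays. The groups did not overlap here either, and the nearest arrays of the groups were RANKL-deficient array 1 and control array 1. The means were 7.91 ± 0.055 in RANKL-deficient cells and 8.23 ± 0.14 in control cells (SD, n = 3 each), a log2 difference of −0.32 (SE 0.13, 95% confidence interval −0.62 to −0.019). That is a level 0.801 times that of control (limma, unadjusted p = 0.0400, adjusted p = 0.603). Among all genes, 9.08% had RANKL-deficient arrays that all lay below those of control, against 2 of 7 members, and 5.28% had them all above, against 0 members. Since the members were chosen with results of these arrays known, these counts are a description.

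Birc2 gave different values on its 2 probe sets. Probe set 10590799, which had the higher mean and stood for the gene in the fit, is annotated with 1 cDNA accession and 0 RefSeq transcripts. It measured 6.75, 6.86 and 6.53 on the RANKL-deficient arrays and 5.99, 6.07 and 6.57 on the control arrays, so only control array 3 reached into the RANKL-deficient range. The means were 6.71 ± 0.17 in RANKL-deficient cells and 6.21 ± 0.32 in control cells (SD, n = 3 each), a log2 difference of 0.50 (SE 0.19, 95% confidence interval 0.055 to 0.95; limma, unadjusted p = 0.0326, adjusted p = 0.593).

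Probe set 10590791, which is annotated with the RefSeq transcript of Birc2, measured 6.15, 6.66 and 6.73 on the RANKL-deficient arrays and 6.34, 5.45 and 7.29 on the control arrays. Its control arrays spread across the whole RANKL-deficient range and beyond. The log2 difference was 0.15 (SE 0.47, 95% confidence interval −1.0 to 1.30; limma over all probe sets, adjusted p = 0.941). With the mean of both probe sets the gene differed by 0.33, and without control arrays 1 and 2 the first probe set differed by 0.14. Which of the probe sets follows the cIAP1 mRNA was not tested.

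**Figure D2:**
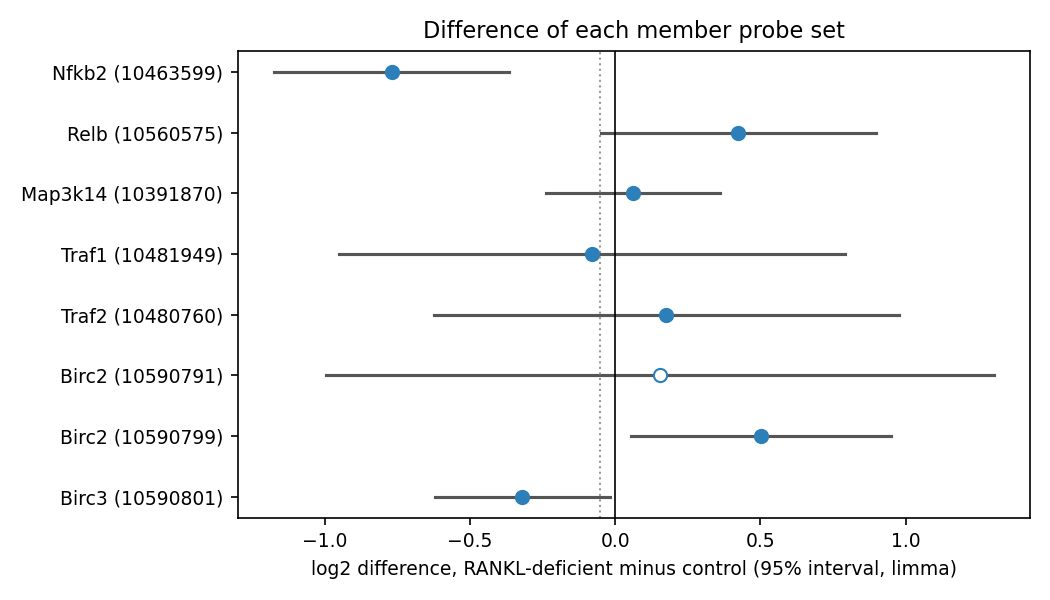
Log2 difference, RANKL-deficient minus control (horizontal axis), of each member probe set (rows) with its 95% confidence interval from limma (n = 3 each); filled points come from the fit over 19938 genes, the open point from the fit over all 35556 probe sets, and the dotted line marks the median of all genes, −0.054. The intervals of Nfkb2, Birc3 and probe set 10590799 of Birc2 leave out 0 before adjustment, and those of Traf1, Traf2 and the other Birc2 probe set are the widest.

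Traf1 and Traf2 encode adaptors of TNF receptors. TRAF2 carries the cIAPs to TRAF3 and NIK, and TRAF1, which lacks the RING domain of the other TRAFs, binds TRAF2 and is itself induced by NF-κB in lymphocytes. Traf1 measured 8.29, 8.21 and 8.31 on the RANKL-deficient arrays and 9.22, 7.61 and 8.21 on the control arrays. The RANKL-deficient arrays lay within 0.1 log2 units of each other, while control array 1 was the highest and control array 2 the lowest of all 6. The log2 difference was −0.080 (SE 0.37, 95% confidence interval −0.95 to 0.79; limma, adjusted p = 0.961). It was 0.36 without control array 1 and −0.45 without control array 2.

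Traf2 measured 6.80, 6.32 and 6.87 on the RANKL-deficient arrays and 5.72, 7.02 and 6.72 on the control arrays. Here control array 1 was the lowest and control array 2 the highest of all 6, the reverse of Traf1. The log2 difference was 0.18 (SE 0.34, 95% confidence interval −0.63 to 0.98; limma, adjusted p = 0.891), and it was −0.21 without control array 1 and 0.44 without control array 2. These arrays also stood apart over all genes: control array 1 held 247 genes, and control array 2 held 75, that were over 1.5 log2 units lower than the other arrays' median, and the rest held 11 to 28. On control array 1 Traf1 lay 1.00 above and Traf2 1.07 below the median of the other arrays, where 1.47% of all genes lay at least 1 above and 3.91% at least 1 below. The part of array quality in these values was not tested.

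The spread within groups differed among the members. The SD of Traf1 was 0.053 in RANKL-deficient cells and 0.81 in control cells, and 3.09% of all genes had a control SD as large. That of Traf2 was 0.30 in RANKL-deficient cells and 0.68 in control cells. Nfkb2 showed the opposite, with 0.29 in RANKL-deficient cells and 0.10 in control cells. In all, 4 of 7 members had the larger SD in control cells, against 66.4% of all genes.

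**Figure D3:**
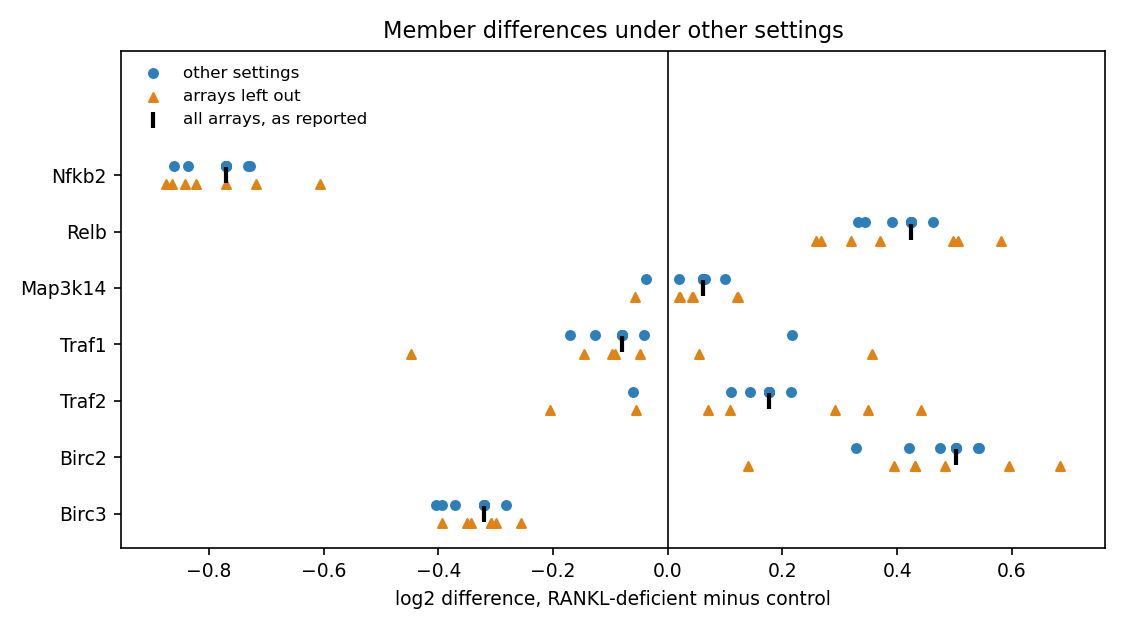
Log2 difference, RANKL-deficient minus control (horizontal axis), of each measured member (rows) with all arrays as reported (black bars), under 9 other settings (blue points) and with 1 or 2 arrays left out (orange triangles). Nfkb2 and Birc3 stay below 0 and Relb and Birc2 above 0 throughout, while Map3k14, Traf1 and Traf2 lie on both sides of 0.

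Genes around the pathway were taken from 6 lists. These hold its receptors, ligands, processing genes and stromal targets, but also classical NF-κB genes and relatives of the TRAFs and IAPs. The counts over all lists are therefore not counts of the alternative pathway alone. Of 54 listed genes, 48 were measured, and none passed the adjusted threshold (limma, lowest adjusted p = 0.461). At an unadjusted p under 0.05 there were 6 of the 48, against 8.15% of all genes, with 4 higher (4.25% of all genes) and 2 lower (3.9%). In 13 of the 48 the arrays did not overlap between groups, against 14.4% of all genes, with 8 higher (5.28%) and 5 lower (9.08%).

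Among the ligands, 1 of 8 had an unadjusted p under 0.05, against 8.15% of all genes. Tnfsf8, the ligand of CD30, measured 7.02, 6.48 and 7.16 on the RANKL-deficient arrays and 5.93, 5.81 and 6.38 on the control arrays, a log2 difference of 0.85 (SE 0.23; limma, adjusted p = 0.461). The lymphotoxin genes, whose products signal through the lymphotoxin β receptor, had differences of opposite sign, 0.36 for Lta and −0.42 for Ltb, and only those of Lta had arrays that did not overlap. Tnfsf11, which encodes RANKL and is the floxed gene, measured 8.36, 8.65 and 8.52 on the RANKL-deficient arrays and 8.76, 8.41 and 8.25 on the control arrays. Those groups overlapped, and the position of its probe set relative to the deleted part is not given in the sources used here, so it does not check the labels.

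Among the 10 receptors, Tnfrsf8, which encodes CD30, measured 4.0, 4.18 and 4.11 on the RANKL-deficient arrays and 4.65, 4.76 and 4.21 on the control arrays (log2 difference −0.44, SE 0.17; limma, adjusted p = 0.598). Its ligand gene Tnfsf8 thus had the higher mean and the receptor gene the lower. The control mean of Tnfrsf8, 4.54, was under the median gene's 5.12, and the arrays' background was not measured here. Tnfrsf1b, the second TNF receptor, had a log2 difference of 0.52 and Tnfrsf13c, the BAFF receptor, of 0.25, both with arrays that did not overlap, though for Tnfrsf1b RANKL-deficient array 2 and control array 2 both stood at 8.07. Ltbr, the lymphotoxin β receptor, had a difference of −0.19 and arrays that barely did not overlap. Its nearest arrays were RANKL-deficient array 1 at 6.40 and control array 3 at 6.41. Tnfrsf11a, which encodes RANK, measured 6.92 ± 0.16 in RANKL-deficient cells and 6.84 ± 0.33 in control cells (SD, n = 3 each).

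Among the 8 measured genes of p100 processing and NIK turnover, Otud7b had the lowest p. It encodes a deubiquitinase that protects TRAF3, and it measured 6.66, 7.0 and 6.51 on the RANKL-deficient arrays and 5.59, 6.03 and 6.39 on the control arrays (log2 difference 0.72, SE 0.23; limma, adjusted p = 0.545). The groups did not overlap. Cul1 and Skp1, scaffold and adaptor of the SCF ligase that recognises p100 through β-TrCP, differed by −0.28 and 0.18, and only the arrays of Cul1 did not overlap.

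Of the 8 measured classical partners, Rela, the main activating subunit, measured 8.82, 9.03 and 8.69 on the RANKL-deficient arrays and 9.17, 9.13 and 9.23 on the control arrays (log2 difference −0.33, SE 0.13; limma, adjusted p = 0.604). Rel, the subunit c-Rel, had a difference of 0.49 with all RANKL-deficient arrays above all control arrays, and Tnfaip3, which encodes the inhibitor A20, one of 0.36 with overlapping arrays. Of the 7 TRAF and IAP relatives, Traf6, the adaptor of RANK and Toll-like receptors, measured 6.55, 6.67 and 6.74 on the RANKL-deficient arrays and 4.82, 6.30 and 6.15 on the control arrays. Its log2 difference of 0.89 (SE 0.37; limma, adjusted p = 0.607) had control array 1 as the lowest array by far, as for Traf2. Birc5, which encodes survivin, differed by 0.37 and Traf7 by −0.24.

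The stromal target genes are those that RelB and p52 drive in the stroma of lymphoid organs. Of 7 measured genes, 0 had an unadjusted p under 0.05 (limma), against 8.15% of all genes. The median log2 difference of the 7 was −0.014, and 5 had a mean below the median of all genes. Ccl19, a chemokine for T cells, differed by −0.085, Chst4 by 0.061 and Glycam1 by −0.24. Of the 7, only Glycam1 had arrays that did not overlap, lower in RANKL-deficient cells, against 9.08% of all genes.

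**Figure D4:**
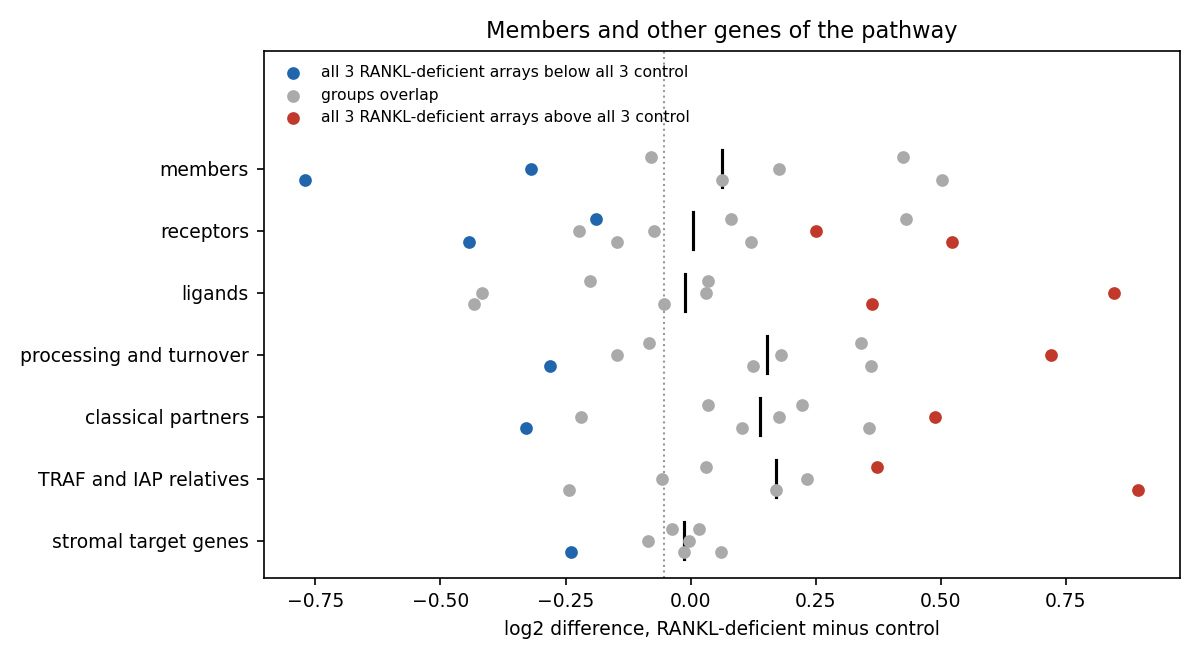
Log2 difference, RANKL-deficient minus control (horizontal axis), of the 7 measured members and of the 48 measured genes of 6 related lists (rows). Red points have all 3 RANKL-deficient arrays above all 3 control arrays, blue points all below, and grey points overlap. Black bars are list medians and the dotted line is the median of all genes, −0.054. Nfkb2 is the lowest point shown at −0.77, and Traf6 the highest at 0.89.

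Of 11 markers of CCR6+ ILC3s, 8 were measured, and 5 had a higher mean in RANKL-deficient cells. Il7r, Kit, Id2 and Il23r had mean log2 values of 12.26, 10.82, 11.60 and 10.80 in RANKL-deficient cells and 12.28, 10.85, 11.47 and 10.70 in control cells. Ccr6, the sorted marker, had means of 9.45 in RANKL-deficient cells and 9.13 in control cells. The markers were not all alike between the groups: Cxcr5, the receptor for the follicle chemokine CXCL13, had means of 9.94 in RANKL-deficient cells and 9.09 in control cells, with arrays that did not overlap (log2 difference 0.85; limma, unadjusted p = 0.00206, adjusted p = 0.377). Ahr and Nrp1 differed by 0.24 and −0.25 with overlapping arrays.

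No marker of another cell type passed the adjusted threshold, but some differed more than the members did. Cd3g, a chain of the T cell receptor complex, measured 5.26, 4.2 and 4.89 on the RANKL-deficient arrays and 7.32, 6.93 and 5.82 on the control arrays. The groups did not overlap, as for Nfkb2 and Birc3, and the log2 difference was −1.91 (SE 0.43; limma, unadjusted p = 0.00276, adjusted p = 0.408). Of the other 5 T cell markers, Cd3e differed by −0.70 with overlapping arrays, and Lat by 0.51 with all RANKL-deficient arrays higher. Lat had means of 9.70 in RANKL-deficient cells and 9.19 in control cells, the highest of its list. Which cells its RNA came from was not tested, and the T cell list mean given below includes it. Ncr1, a receptor of natural killer cells and some ILCs, differed by −0.93 with arrays that did not overlap, and Adgre1, a macrophage marker, by −0.54 with arrays that overlapped. Adgre1 did not stand for its list: of 8 myeloid and dendritic cell markers, 5 had a higher mean in RANKL-deficient cells. Among them Itgax differed by 0.39 with arrays that did not overlap. The mean level of that list per array ran from 5.08 to 5.71 in RANKL-deficient cells and from 5.40 to 5.49 in control cells. The mean level of the T cell list per array ran from 5.70 to 6.03 in RANKL-deficient cells and from 5.83 to 6.39 in control cells, and that of the ILC1 and NK cell list from 4.22 to 4.44 in RANKL-deficient cells and from 4.42 to 4.87 in control cells.

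Of 6 measured B cell markers, 4 had a mean below the median of all genes, and Cd79b and Blk lay above it, at 6.98 and 5.97 in RANKL-deficient cells and 7.32 and 5.80 in control cells. None of the 6 had arrays that separated the groups, where 14.4% of all genes did. The mean level of the 7 stromal and endothelial markers per array ran from 5.59 to 5.81 in RANKL-deficient cells and from 5.84 to 5.95 in control cells. Of these 7 genes, 1 had a higher mean in RANKL-deficient cells, against 39.5% of all genes. In 2 of them all RANKL-deficient arrays lay below all control arrays, against 9.08% of all genes. An unadjusted p under 0.05 was found for 0 (limma), against 8.15% of all genes. The epithelial list had 0 of 7 higher, against 39.5% of all genes. Its mean levels per array were 4.80 to 5.64 in RANKL-deficient cells and 5.34 to 5.56 in control cells. The part of other cells in the values of Nfkb2 and Birc3 was not tested. In bulk samples, fewer cells of a type and less RNA per cell cannot be told apart.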

How the data were processed

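RNA from sorted cells (2 ng) was amplified with a NuGEN kit and hybridised to 6 arrays, per the labels' protocols. Per the submitters' processing notes, the authors ran RMA and Affymetrix Expression Console. The deposited values are log2 expression. The sources used here name no versions or genome build, and the log2 scale was read from the values. RMA brings the arrays' probe intensities to a common distribution, so a shift of all genes can be hidden, but the deposited values still differed in spread (SD over genes 1.86 to 2.01). Of 35556 probe sets, 21789 had 1 symbol, 1621 several and 12146 none; only the first were named. Symbols were updated by Entrez identifier through RefSeq (GRCm38.p6), and the probe set with the highest mean stood for each of 19938 genes.

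Groups and replicate numbers came from the titles. The groups were compared in R 4.3.3 by limma 3.58.1 (lmFit with eBayes, two-sided, no replicate block, no filter), with Benjamini-Hochberg adjustment over all genes. On simulated data for this comparison over 19938 genes, 43% of 200 genes changed by 1 log2 unit were recovered, and 91% of those changed by 2. Precision is limited by the number of arrays. The members and lists were chosen with earlier results of these data known. Every measured member was named, with Tnfsf11, Tnfrsf11a, Ltbr, Lta and Ltb, and the 3 genes of each list with the smallest unadjusted p. The alternatives were the replicate block, other normalizations, filters, probe set rules and limma options, and arrays left out.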

Additional observations from a re-analysis of the deposited data

How the results depend on the processing

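No member passed the adjusted threshold in any of the 16 alternatives, and the median member difference of 0.062 stayed between −0.056 and 0.12. The differences of Nfkb2, Relb, Birc2 and Birc3 kept their sign throughout. The count of all genes past the threshold, 1 with all arrays, was 0 with all probe sets tested, 0 without control arrays 1 and 2, 2 with the trend and robust options, and 0 to 1 when 1 array was left out; the cause was not tested. With the replicate number as a block it was 0. Same-numbered arrays of the groups share only a number: their deviations from the group means correlated by −0.023, 0.050 and 0.027. In the other group, 4 of 6 arrays correlated best with their own number. Correlations this near 0 cannot show whether the arrays were paired. The Tnfsf11 difference of 0.035 turned to −0.033 after quantile normalization, −0.058 after cyclic loess, −0.034 without RANKL-deficient array 2 and −0.078 without control array 3, and ranged up to 0.18 when 1 array was left out. Map3k14 turned to −0.038 after quantile normalization and −0.057 without control arrays 1 and 2. Traf1 turned to 0.22 with array weights, 0.36 without control array 1 and 0.054 without control arrays 1 and 2, and Traf2 to −0.060, −0.21 and −0.056 in the same settings. Without control array 2 they were −0.45 for Traf1 and 0.44 for Traf2. The fit without control arrays 1 and 2 leaves 1 control array, which is assumed to vary like the RANKL-deficient arrays.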
